A study of Homo sapiens with 8 samples.

Results

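Olaparib and palbociclib were each given alone and together to A2780 cells, so that for every gene the effect of olaparib with palbociclib present could be set against its effect without it. All 8 libraries of the series entered this comparison, and 12443 of the 31721 genes in the deposited table were kept because their mean over the 8 libraries reached 1 FPKM (fragments per kilobase of exon, scaled to library size). A2780 is an established human ovarian carcinoma line. The 4 groups received DMSO (the solvent), olaparib, palbociclib, or olaparib with palbociclib (called the combination here) for 24 hours, and polyadenylated RNA was sequenced. Each group had 2 libraries, given as biological repeats. The labels do not say whether the repeats were grown as separate cultures. A p-value here sets a difference against the spread between libraries of the same group, pooled over the 4 groups. That spread may be technical. Doses are not given in the sources used here. The DMSO group serves as control for both drugs.

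The interaction of a gene was its mean log2(FPKM + 1) in the combination minus that in palbociclib, less the same difference between olaparib and DMSO. A value of 0 means that the drugs added up on the log scale. A negative value means that the combination lay below the additive level and a positive value that it lay above it. For a gene raised by olaparib a negative value is therefore a smaller rise beside palbociclib, and for a gene lowered by both drugs a positive value is a smaller joint fall than the sum.

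Olaparib inhibits PARP1 and PARP2, enzymes that detect DNA strand breaks and recruit repair factors, and it holds the enzymes on DNA so that replication forks meet lesions. Palbociclib inhibits CDK4 and CDK6, the cyclin D kinases that inactivate the RB protein and so release E2F-driven transcription before S phase. The transcription factor p53 is activated by DNA damage signalling and turns on genes of cell cycle arrest, apoptosis, repair and its own negative feedback, among them CDKN1A, whose product p21 inhibits cyclin-dependent kinases.

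Reads recovered from the deposited values numbered 18158713 to 30122425 per library over the genes whose annotated length fitted, and FPKM sums ran from 264453 to 295656. The epithelial morphology on the label was not matched by epithelial markers: of 12 looked for (among them EPCAM, KRT8, KRT18, CDH1 and MUC16), 10 were in the table and 0 reached a mean of 1 FPKM, with a summed level of 0.972 to 2.54 FPKM. Of 12 markers of other cells, 3 reached it, all of them matrix or stromal genes (LUM at a mean of 44.0, DCN at 6.68 and PDGFRB at 2.27 FPKM), while blood and endothelial markers such as CD68, CD14 and PECAM1 stayed under 0.05 FPKM on average. The summed level of the 12 other-cell markers ran from 54.3 to 55.8 FPKM under DMSO, 47.2 to 50.8 under olaparib, 53.2 to 59.2 under palbociclib alone and 52.7 to 54.2 under both drugs. Of 32 mesenchymal and matrix genes, 19 reached a mean of 1 FPKM. VIM at 292 and COL3A1 at 163 FPKM were abundant, while others such as FN1 at 0.188 and CD44 at 0.0268 FPKM stayed low.

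Most genes could not be told from additive in this design. In limma, 1 of 12443 genes passed an adjusted p of 0.05 for the interaction (0.00804% of those tested), and it lay below the additive level. At an unadjusted p under 0.05 there were 1315 genes (10.6%), of which 718 were positive (5.77% of all tested) and 597 negative (4.80%). That split depended on the scaling of the libraries: after conversion to TPM 418 of 1388 were positive, after quantile normalisation 522 of 1282, and by voom on recovered reads 576 of 1713. The median interaction over all tested genes was 0.016, with an SD of 0.22 over genes, and 45.4% of genes lay below 0. The 95% interval of a gene's interaction reached 0.21 to either side at the median, and 0.17 for the 7003 protein-coding genes with a mean of at least 5 FPKM. Among those 7003 genes, 13 had an interaction beyond 0.5 in size. Olaparib alone changed 1821 genes at an adjusted p of 0.05 (14.6% of those tested, 514 higher and 1307 lower), while olaparib beside palbociclib changed 3 (0.0241%). The first count rested on few libraries: it was 13 or 28 with DMSO replicate 1 or 2 left out, and 268 or 33 with olaparib replicate 1 or 2 left out. The second was 0 to 2 with any 1 library left out, but 250 by voom on recovered reads, 212 after a correction for GC content and length, 68 among protein-coding genes alone and 17 after quantile normalisation. The split of the first count also moved with scaling, with 939 of 1412 higher on TPM, 602 of 1000 after quantile normalisation and 1411 of 2930 by voom on recovered reads. The pair of counts does not by itself show a difference, which is what the interaction tests gene by gene.

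Targets of p53 lay below the additive level. In bulk RNA, fewer cells in a state and less RNA per cell cannot be told apart, for these and all later groups. Of 39 tested members of a list of p53 targets, 37 had an interaction below 0, beside 45.4% of all genes, and 19 reached an unadjusted p under 0.05, each of them negative (4.80% of all genes were negative at that level). In limma on log2(FPKM + 1) over all 12443 genes, 0 of the 39 passed an adjusted p of 0.05 in the interaction. With a minimum mean of 5 FPKM 2 passed (CDKN1A and BTG2), of 6 genes called among 7417 tested. The same 2 passed among protein-coding genes alone, of 3 called among 10175. By voom on recovered reads 11 passed, of 112 called among 12443, and 109 of those 112 were negative. Each of these p53 targets was negative. With no trend, with the replicate number as a block, or after a correction for GC content and length, 0 genes of any kind were called. The list median was −0.20, against 0.016 over all genes. Its median effect of olaparib was 0.44 without palbociclib and 0.24 with it, and the members called higher numbered 31 of 39 (4.13% of all genes) and 0 (0.00804%). Palbociclib acted on the same list with a median of 0.15 without olaparib, where 17 members were called higher and 6 lower (18.7% and 31.4% of all genes, 50.1% together), and of −0.11 with olaparib, where 6 were called higher and 15 lower (17.0% and 27.4%, 44.4% together). Of the counts in this list, the 31 called higher with olaparib were 6 and 10 with DMSO replicate 1 and 2 left out, 21 and 9 with olaparib replicate 1 and 2 left out, and 28 to 32 with any other library left out. Counts for palbociclib also moved: the 17 were 11 without DMSO replicate 1, the 15 were 9 without combination replicate 1 and 8 without olaparib replicate 2, and the 6 called higher beside olaparib were 3 without combination replicate 2. The 19 at an unadjusted p under 0.05 in the interaction were 15 to 22 with any 1 library left out.

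CDKN1A (chromosome 6, 36676460 to 36687339 on GRCh38) encodes the CDK inhibitor p21. Its level was 12.4 and 12.7 FPKM under DMSO, 30.5 and 31.7 under olaparib, 18.7 and 17.8 under palbociclib alone and 24.5 and 28.1 under both drugs. Both combination libraries lay above the palbociclib libraries and below the olaparib libraries, and no groups overlapped. Additive action would have put the combination at 44.5 FPKM, and it was observed at 26.2, which is 58.9% of that level. The interaction was −0.74 ± 0.09 (SE; 95% interval −0.95 to −0.53; limma adjusted p = 0.159, unadjusted p = 7.67e-05). Palbociclib raised CDKN1A by 0.51 in the absence of olaparib and lowered it by 0.23 in its presence, both past the adjusted threshold (limma adjusted p = 0.000716 and 0.0224).

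BTG2, an antiproliferative gene on chromosome 1 (203305491 to 203309602), had an interaction of similar size with another order of groups. It measured 8.63 and 8.90 FPKM under DMSO, 19.8 and 21.6 under olaparib, 16.9 and 16.1 under palbociclib alone and 21.8 and 24.2 under both drugs. Here the combination libraries were the highest of the 8, but they fell short of the additive level of 37.7 FPKM, at 23.0. The interaction was −0.69 ± 0.09 (limma adjusted p = 0.184). FDXR, a mitochondrial ferredoxin reductase gene on chromosome 17 (74862497 to 74873031), had 19.7 and 21.2 FPKM under DMSO, 49.3 and 57.2 under olaparib, 27.4 and 26.8 under palbociclib alone and 38.4 and 45.2 under both drugs. Its combination libraries lay between the single drugs, at 41.7 FPKM against an additive 70.0, an interaction of −0.73 ± 0.13 (limma adjusted p = 0.271). The lowest member of the list was PHLDA3, which encodes an inhibitor of AKT signalling (chromosome 1, 201464383 to 201469237), at −0.75 ± 0.15 (limma adjusted p = 0.316). PHLDA3 measured 7.25 and 8.55 FPKM under DMSO, 20.2 and 22.1 under olaparib, 9.96 and 9.95 under palbociclib alone and 13.7 and 16.9 under both drugs, so that palbociclib was called higher than DMSO while the combination was called lower than olaparib.

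**Figure D1:**
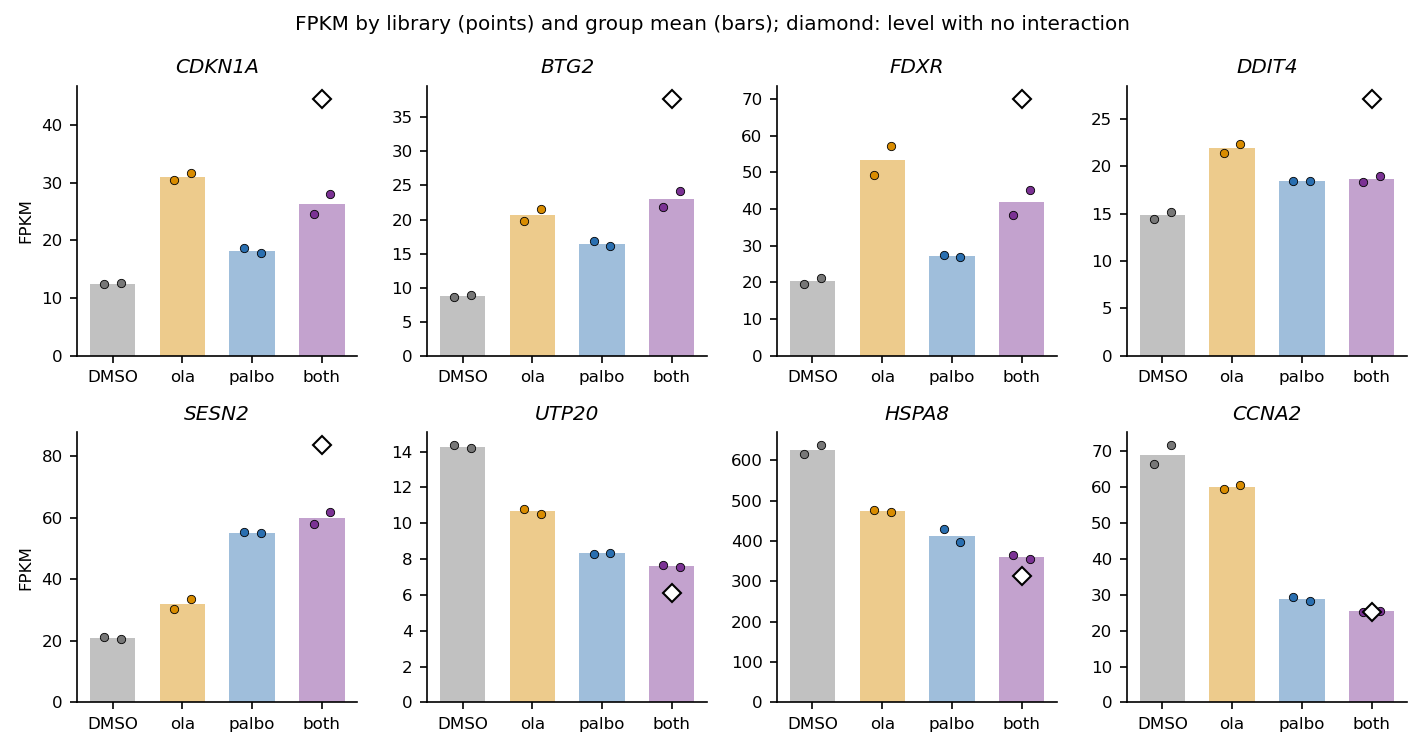
FPKM (vertical axes, linear from 0, with its own range in each panel) of 8 genes in the 4 groups, with each library as a point, the mean of 2 libraries as a bar and the additive level of the combination as a diamond. For CDKN1A, BTG2, FDXR, DDIT4 and SESN2 the combination stands below its diamond, for UTP20 and HSPA8 slightly above it, and for CCNA2 on it.

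Members of the p53 list are given next by their role in the response. Among genes of arrest and stress signalling, the cytokine gene GDF15 had an interaction of −0.70 ± 0.17, SESN2 of −0.47 ± 0.08 and its paralogue SESN1, also a sestrin that restrains mTORC1, of −0.31 ± 0.06. Among apoptosis genes, BBC3 (which encodes PUMA) had −0.50 ± 0.16, BAX, a pore-forming member of the BCL2 family, −0.27 ± 0.08, and the death receptor gene TNFRSF10B −0.17 ± 0.06. Among repair genes, DDB2, a subunit of the complex that recognises ultraviolet damage, had −0.33 ± 0.06, XPC, which recognises helix distortions, −0.19 ± 0.07, and the translesion polymerase gene POLH −0.0055 ± 0.06. Among feedback regulators, the phosphatase gene PPM1D had −0.27 ± 0.07 and MDM2, the ubiquitin ligase that degrades p53, −0.20 ± 0.08 (95% interval −0.39 to 0.0015). The 2 members above 0 were CCNG1 at 0.063 ± 0.073 and ABHD4, the highest member, at 0.073 ± 0.095.

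MDM2 measured 6.30 and 6.27 FPKM under DMSO, 8.76 and 8.32 under olaparib, 5.39 and 4.97 under palbociclib alone and 6.38 and 5.75 under both drugs. Unlike CDKN1A and BTG2, it was lowered by palbociclib both without olaparib (−0.24) and with it (−0.43). DDB2 measured 5.91 and 5.63 FPKM under DMSO, 10.5 and 10.1 under olaparib, 6.40 and 6.31 under palbociclib alone and 8.82 and 8.71 under both drugs, with no overlap between any groups. Its palbociclib effect was 0.12 without olaparib and −0.21 with it, both past the adjusted threshold.

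**Figure D2:**
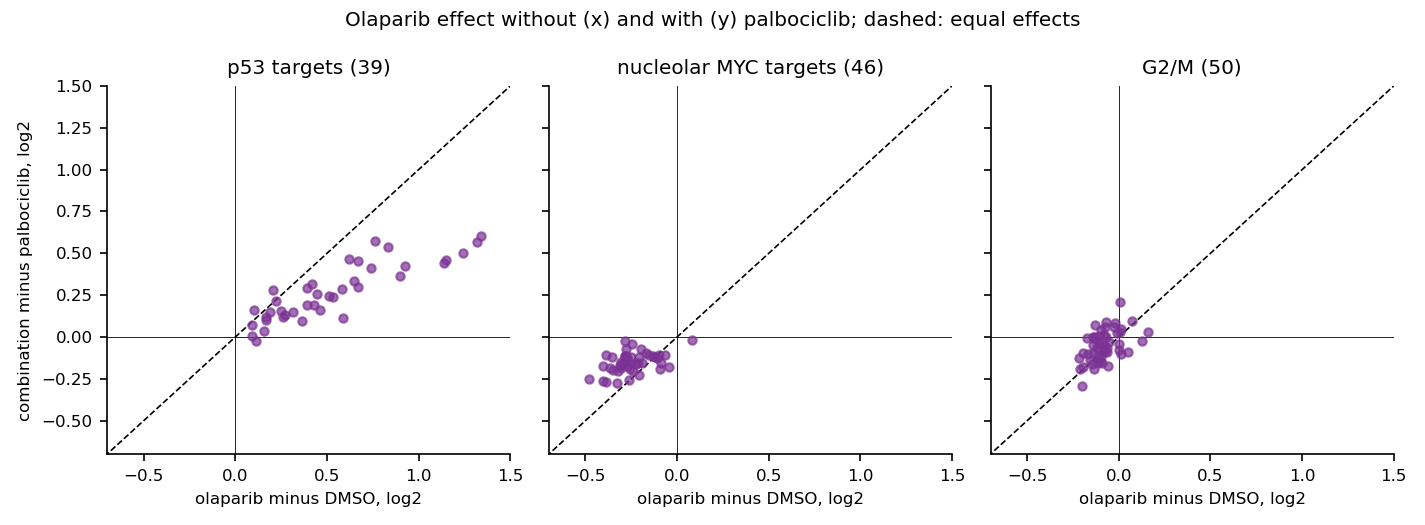
Log2 difference between olaparib and DMSO (horizontal) against the log2 difference between the combination and palbociclib (vertical) for the genes of 3 lists, each gene a point and the dashed line marking equal effects. The p53 targets lie to the right of 0 and mostly under the line (37 of 39), the nucleolar MYC targets lie to the left and mostly above it (37 of 46), and the G2/M genes scatter close to 0 around it.

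Besides p53 targets already named, the 12 protein-coding genes of at least 5 FPKM with the lowest moderated t included SESN2, also on the p53 list, and genes outside it. DDIT4, which encodes the mTORC1 inhibitor REDD1 (chromosome 10, 72273920 to 72276036), had the lowest moderated t of the protein-coding genes with at least 5 FPKM. It measured 14.5 and 15.2 FPKM under DMSO, 21.4 and 22.4 under olaparib, 18.4 and 18.5 under palbociclib alone and 18.4 and 18.9 under both drugs. Olaparib added 0.53 to DDIT4 without palbociclib and 0.01 with it, for an interaction of −0.52 ± 0.06 (limma adjusted p = 0.144), and the palbociclib and combination libraries overlapped. SESN2 measured 21.3 and 20.5 FPKM under DMSO, 30.4 and 33.5 under olaparib, 55.3 and 54.9 under palbociclib alone and 57.8 and 61.8 under both drugs, which is 71.6% of the additive level of 83.4. CCNG2, an atypical cyclin linked to quiescence, had an interaction of −0.40 ± 0.07, and DYRK1B, a kinase known for holding cells out of the cycle, one of −0.46 ± 0.07. Both were raised by palbociclib alone (0.98 and 1.18) and had an olaparib effect of 0.09 on top of it, against 0.49 and 0.55 without it.

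The other 4 of the 12 genes with the lowest moderated t were of mixed function. TUBA1A, an alpha tubulin gene, measured 22.5 and 22.5 FPKM under DMSO, 27.7 and 27.1 under olaparib, 33.9 and 33.6 under palbociclib alone and 30.8 and 32.6 under both drugs, so the combination libraries lay under those of palbociclib alone (interaction −0.36 ± 0.05). APOBEC3B, a cytidine deaminase that edits single-stranded DNA, measured 24.7 and 24.0 under DMSO, 29.1 and 27.9 under olaparib, 27.9 and 27.7 under palbociclib alone and 25.9 and 25.02 under both drugs. Each drug alone put APOBEC3B above DMSO, and both together put it under either drug (interaction −0.34 ± 0.05, limma adjusted p = 0.257). LRP1, an endocytic receptor gene, had −0.39 ± 0.07, and PCSK1N, which encodes an inhibitor of a prohormone convertase, −0.63 ± 0.11.

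Genes of ribosome assembly, protein folding and protein breakdown lay above the additive level, that is, their fall with both drugs was smaller than the sum. Among 46 nucleolar genes that MYC is known to drive (nucleolar MYC targets), 37 were above 0 beside 54.6% of all genes, 14 were positive at an unadjusted p under 0.05 (5.77% of all genes) and 0 negative, and the median was 0.12. The median effect of olaparib on that list was −0.27 without palbociclib, with 33 members called lower (10.5% of all genes), and −0.15 with it, with 0 called lower (0.0161%). The 33 were 0 and 1 with DMSO replicate 1 and 2 left out and 10 and 1 with olaparib replicate 1 and 2 left out, and they were 20 after quantile normalisation. The 14 were 7 on TPM and 8 after quantile normalisation, 6 without palbociclib replicate 2, 7 and 8 without DMSO replicate 1 and 2, 9 without combination replicate 1 or olaparib replicate 1, and 11 to 17 without another library. UTP20, a factor for processing of the small ribosomal subunit (chromosome 12, 101280109 to 101386616), was the highest member. It measured 14.4 and 14.2 FPKM under DMSO, 10.8 and 10.5 under olaparib, 8.28 and 8.35 under palbociclib alone and 7.68 and 7.58 under both drugs. All 4 groups were separate for UTP20, and the combination stood at 125% of its additive level of 6.11 FPKM (interaction 0.28 ± 0.05, limma adjusted p = 0.271).

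NPM1, an abundant nucleolar chaperone, measured 766 and 778 FPKM under DMSO, 634 and 631 under olaparib, 508 and 489 under palbociclib alone and 462 and 460 under both drugs, against an additive 408 (interaction 0.17 ± 0.05). TSR1 and MAK16, a pair of ribosome assembly factors among the 12 highest moderated t, had 0.24 ± 0.05 and 0.25 ± 0.05. The lowest member of the nucleolar list was BOP1, which acts in large subunit assembly, at −0.13 ± 0.11. Cytosolic ribosomal protein genes were above 0 in 39 of 45, beside 54.6% of all genes (median 0.079; 6 positive at an unadjusted p under 0.05, beside 5.77% of all genes), from RPS16 at −0.029 to RPL37 at 0.18. Their median was 0.026 without combination replicate 2, with 21 of 45 below 0, and 0.023 after quantile normalisation, with 17 below 0. The 6 at an unadjusted p under 0.05 were 16 without combination replicate 1, where 0 of the 45 lay below 0, and 1 or 2 without each of the other libraries in turn.

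Chaperones of the heat shock response were above 0 in 12 of 16 (54.6% of all genes), with a median of 0.11. At an unadjusted p under 0.05, 6 were positive (5.77% of all genes) and 0 negative, and 3 reached that p after quantile normalisation. HSPA8, the constitutive HSP70, measured 614 and 637 FPKM under DMSO, 477 and 471 under olaparib, 430 and 397 under palbociclib alone and 366 and 355 under both drugs, against an additive 313. The olaparib effect on HSPA8 was −0.40 without palbociclib and −0.20 with it (interaction 0.20 ± 0.07). CHORDC1, an HSP90 cochaperone, was highest at 0.24 ± 0.08, and the small heat shock protein gene HSPB1 lowest at −0.26 ± 0.11. Proteasome subunits were above 0 in 22 of 23 (54.6% of all genes), with 6 positive at an unadjusted p under 0.05 (5.77% of all genes). Their median was 0.10, and 0.039 after the correction for GC content and length described below. They ran from PSMD2 at −0.013 to the core particle subunit PSMA1 at 0.25 ± 0.10. With 1 library left out, the number at an unadjusted p under 0.05 was 1 (without DMSO replicate 2) to 8 (without combination replicate 2) for the chaperones and 3 (without either DMSO replicate or palbociclib replicate 2) to 10 (without palbociclib replicate 1) for the proteasome. Genes of the unfolded protein response were above 0 in 17 of 20, beside 54.6% of all genes (median 0.083), with DNAJB11, an endoplasmic reticulum cochaperone, highest at 0.24 ± 0.06 and SDF2L1 lowest at −0.11. DNAJB11 stood at 16.9 FPKM in both DMSO libraries, at 13.7 to 14.5 in both olaparib and both palbociclib libraries, and at 14.0 and 14.1 with the combination, so the 3 treated groups overlapped.

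**Figure D3:**
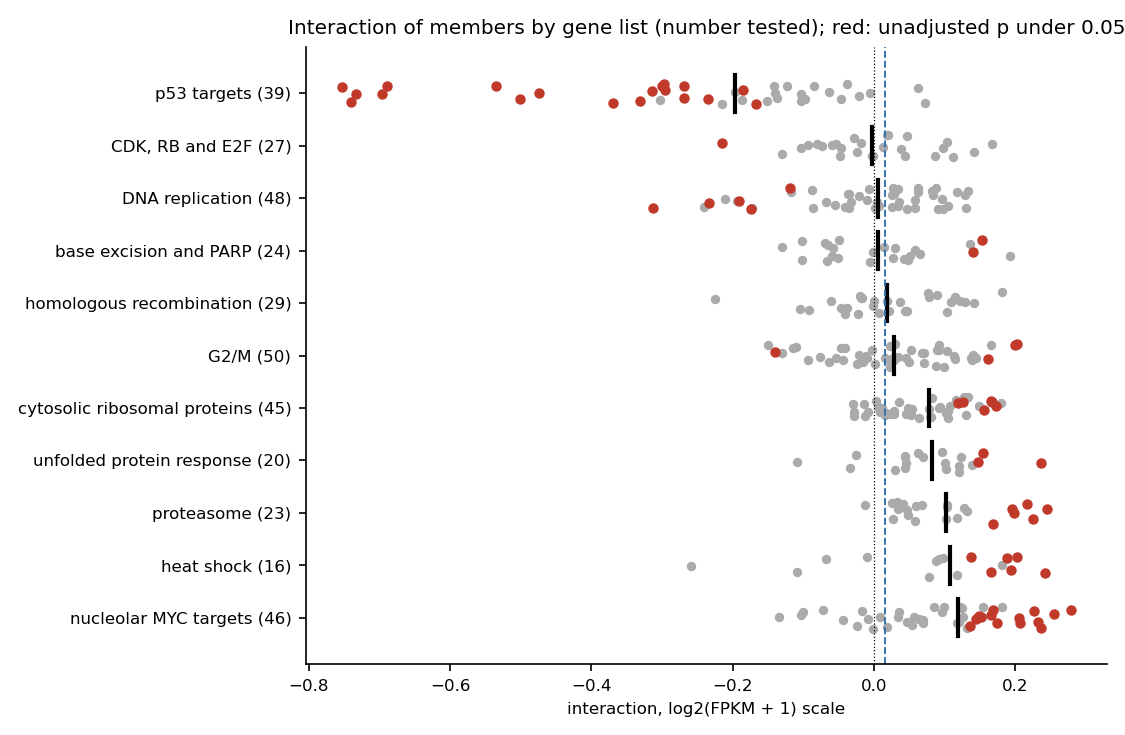
Interaction on the log2(FPKM + 1) scale (horizontal) of the tested members of 11 gene lists, each gene a point, red where its unadjusted limma p was under 0.05, with a black bar at the list median, a dotted line at 0 and a blue dashed line at the median of all genes (0.016). The p53 targets reach −0.75 with a median of −0.20, the nucleolar, heat shock and proteasome lists have medians of 0.10 to 0.12, and the cell cycle and repair lists centre near 0.

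The remaining genes with a high moderated t included RNA processing, mitochondrial and ubiquitin genes. CSTF2, a subunit of the cleavage stimulation factor that acts at polyadenylation sites, measured 23.6 and 23.8 FPKM under DMSO, 19.9 and 19.97 under olaparib, 14.2 and 14.2 under palbociclib alone and 14.6 and 14.7 under both drugs. Olaparib thus put CSTF2 under DMSO in both libraries without palbociclib and slightly over palbociclib in both libraries with it (interaction 0.28 ± 0.04, limma adjusted p = 0.257). NDUFAF4, an assembly factor of respiratory complex I, had 0.30 ± 0.05, MRPL47, a mitochondrial ribosomal protein gene, 0.29 ± 0.05, and USP16, a deubiquitinase of histone H2A, 0.29 ± 0.06. FAM104A (0.31 ± 0.05), MUC15 (0.34 ± 0.07), SELENOS, a selenoprotein of the endoplasmic reticulum (0.23 ± 0.05), FAM208B (0.24 ± 0.05) and UHRF1BP1L (0.24 ± 0.05) made up the rest. In each of these 12 the combination was within 119% to 134% of its additive level.

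The integrated stress response, in which ATF4 turns on amino acid synthesis and transport, divided. Of 23 tested members 17 were above 0, beside 54.6% of all genes, and the median was 0.052. At an unadjusted p under 0.05, 5 were positive and 2 negative (5.77% and 4.80% of all genes). The negative members were DDIT4 and SESN2, described above, and SESN2 is also counted among the p53 targets. ATF4 itself had 0.24 ± 0.07, with 128 and 123 FPKM under DMSO, 96.4 and 104 under olaparib, 97.2 and 93.4 under palbociclib alone and 88.9 and 90.8 under both drugs. The asparagine synthetase gene ASNS had 0.21 ± 0.07, and the highest member, DDIT3, which encodes the factor CHOP, 0.30 ± 0.21.

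The cell cycle genes that palbociclib lowered most were close to additive. Of 50 G2/M genes, 48 were called lower with palbociclib both without olaparib and with it (31.4% and 27.4% of all genes), with medians of −0.78 and −0.76. The median interaction was 0.028, with 18 members below 0, beside 45.4% of all genes. CCNA2, the S and G2 cyclin, measured 66.3 and 71.6 FPKM under DMSO, 59.6 and 60.6 under olaparib, 29.3 and 28.4 under palbociclib alone and 25.2 and 25.5 under both drugs, which was 101% of the additive level. Its interaction was 0.016 ± 0.06 (95% interval −0.13 to 0.16), and that of the proliferation marker MKI67 0.023 ± 0.07 (−0.13 to 0.18). The range in the G2/M list ran from CDC25B, a phosphatase that activates CDK1, at −0.15 ± 0.08 to NDC80, a kinetochore subunit, at 0.20 ± 0.06.

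DNA replication genes had a median interaction of 0.0060, with 22 of 48 below 0, beside 45.4% of all genes. Members at an unadjusted p under 0.05 numbered 11 after quantile normalisation, 10 on TPM, 10 by voom on recovered reads and 9 with the replicate block. Over all 12443 genes those settings gave 1282, 1388, 1713 and 1651. In the main fit there were 5 of 48 members, close to the share of all genes in either direction (10.6%). These 5 were all negative (4.80% of all genes): the thymidine kinase gene TK1 (−0.31 ± 0.10), UHRF1, which maintains DNA methylation (−0.23 ± 0.06), the helicase subunit gene MCM5 (−0.19 ± 0.07), CHAF1A, a histone chaperone subunit (−0.17 ± 0.06), and the sliding clamp gene PCNA (−0.12 ± 0.05). That count was 1 without DMSO replicate 1, olaparib replicate 2 or palbociclib replicate 1, and 9 and 10 without olaparib replicate 1 and combination replicate 2. UHRF1 measured 62.0 and 63.5 FPKM under DMSO, 60.5 and 62.6 under olaparib, 34.1 and 33.0 under palbociclib alone and 27.1 and 28.6 under both drugs, so the combination libraries lay below palbociclib while DMSO and olaparib overlapped. By voom on recovered reads TK1 and UHRF1 passed an adjusted p of 0.05 (voom adjusted p = 0.0421 for each), among 112 genes called. The highest member of the list was PRIM1, a primase subunit, at 0.13 ± 0.09.

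In the list of CDK, RB and E2F genes the median was −0.0027 over 27 members, 15 of them below 0, beside 45.4% of all genes. E2F1 was the lowest, at −0.21 ± 0.07, with 34.9 and 35.0 FPKM under DMSO, 33.6 and 37.1 under olaparib, 24.2 and 24.5 under palbociclib alone and 20.8 and 21.4 under both drugs. Its value was −0.092 after a correction for GC content and length. The 95% intervals of the other regulators fixed for naming all held 0: CCND1, which encodes cyclin D1, had −0.060 ± 0.05, CCNE1 −0.047 ± 0.07, CCNE2 −0.054 ± 0.12, CDK4 0.013 ± 0.08 and RB1 0.021 ± 0.09. MYC had −0.0084 ± 0.08. CCND1 was raised by palbociclib by 0.52 without olaparib and 0.46 with it.

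DNA repair genes did not depart beyond their error in most cases. Homologous recombination genes had a median of 0.019 over 29 members, 0 of which reached an unadjusted p under 0.05 (10.6% of all genes). The highest was NBN, a subunit of the MRN complex, at 0.18 ± 0.08. BRCA1 had 0.019 ± 0.07 (95% interval −0.15 to 0.19). PARP1, the target of olaparib, measured 107 and 107 FPKM under DMSO, 98.8 and 101 under olaparib, 75.2 and 74.4 under palbociclib alone and 71.6 and 72.8 under both drugs, with an interaction of 0.051 ± 0.04 (−0.051 to 0.15). Medians were 0.0067 over 24 base excision and PARP genes, from MPG at −0.13 to PARP2 at 0.19, 0.058 over 16 Fanconi anaemia genes, from FAAP100 at −0.25 to FAAP24 at 0.12, and 0.047 over 15 checkpoint genes, from PKMYT1 at −0.13 to ETAA1 at 0.18. End joining genes had a median of 0.039 over 15 members, from the shieldin partner MAD2L2 at −0.22 ± 0.08 to LIG4, the ligase of that pathway, at 0.45 ± 0.12. LIG4 measured 3.39 and 3.45 FPKM under DMSO, 2.78 and 2.41 under olaparib, 3.55 and 3.71 under palbociclib alone and 3.79 and 4.51 under both drugs.

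The base composition of transcripts moved with the interaction over all genes. Across 10175 protein-coding genes, which are not independent replicates and share the 8 libraries, the interaction had a Pearson r of −0.537 with the GC content of the longest transcript and of 0.0385 with its log10 length. In 5 groups of equal size, from the GC-poorest to the GC-richest genes, the median interaction went from 0.075 through 0.058, 0.029 and −0.019 to −0.11, and the share below 0 from 19.8% to 83.6%. The same r was 0.424 for olaparib against DMSO and −0.0403 for the combination against palbociclib. GC content also moved with differences between replicates: for replicate 2 minus replicate 1 the r was 0.56 within olaparib, 0.556 within the combination, 0.275 within palbociclib and 0.0104 within DMSO. With 1 library left out, the r of the interaction ran from −0.325 without combination replicate 1 to −0.638 without olaparib replicate 1.

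**Figure D4:**
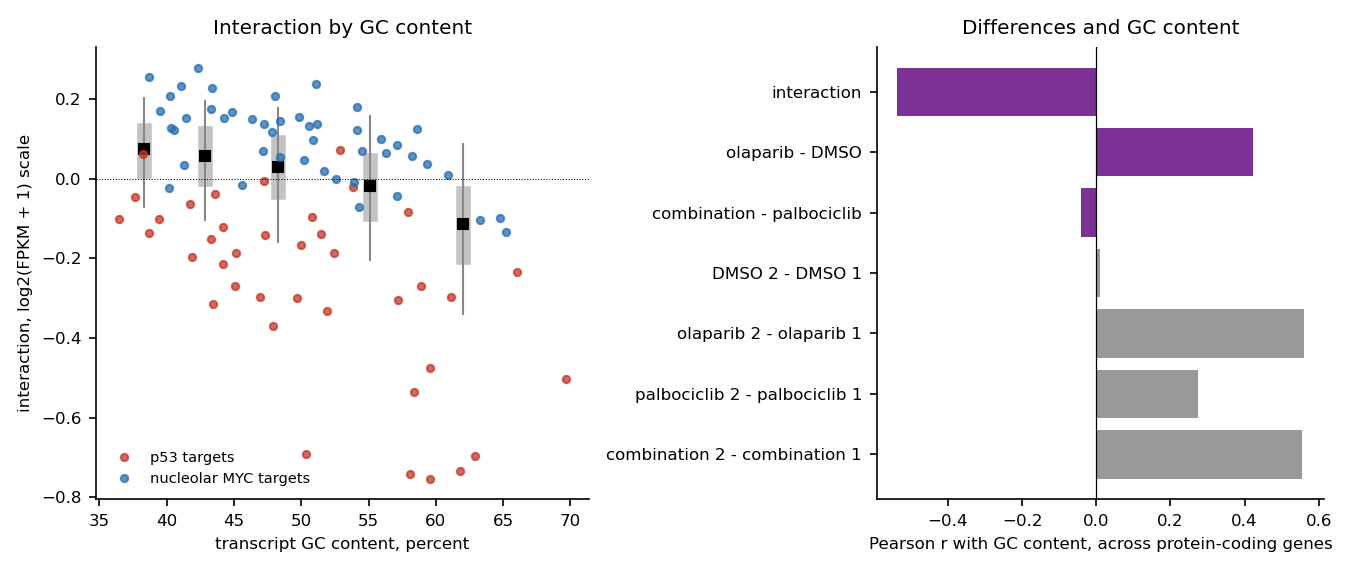
Left, interaction (vertical) against GC content of the longest transcript (horizontal), with 10175 protein-coding genes in 5 groups of equal size, the median of each as a black square, its interquartile range as a wide grey bar and the 5th to 95th percentile as a thin line, and single p53 targets in red and nucleolar MYC targets in blue. Right, Pearson r with GC content for 3 contrasts (purple) and for the replicate differences in each group (grey), with −0.537 for the interaction and 0.56 within olaparib.

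The p53 targets had 8 of 39 members in the GC-richest of the 5 groups and 5 in the poorest. After each library's trend on GC content and length was removed, their median interaction was −0.20, 38 of 39 were below 0 and 27 reached an unadjusted p under 0.05. CDKN1A then had −0.70, BTG2 −0.69, FDXR −0.62 and DDIT4 −0.47, while DYRK1B went from −0.46 to −0.27. The nucleolar list had a median interaction of 0.11 and the heat shock list of 0.13 after that correction. The proteasome list, with 0 of 23 members in the GC-richest group, had 0.039, and the G2/M list, with 17 of 50 in the poorest, 0.0067. The corrected fit covered 12280 genes, none of which passed an adjusted p of 0.05 in the interaction. In it 1272 had an unadjusted p under 0.05, and the lowest adjusted p was 0.0927. ENSG00000274519, the gene called without the correction, has no GC value and was left out of that fit.

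The single gene past the threshold was ENSG00000274519, an identifier without a symbol in the annotation used. It measured 5.04 and 4.44 FPKM under DMSO, 7.01 and 8.62 under olaparib, 12.7 and 11.8 under palbociclib alone and 4.49 and 4.41 under both drugs. Each drug alone put it above DMSO, and the combination was at 23.1% of its additive level of 19.3 FPKM (interaction −1.90 ± 0.13; limma adjusted p = 0.0221). It kept an adjusted p under 0.05 in 2 of the 8 fits that left out 1 library, with adjusted p from 0.0113 to 0.299. It also missed the threshold by voom on recovered reads (adjusted p = 0.101), with no trend (limma adjusted p = 0.0716) and with the replicate number as a block (limma adjusted p = 0.0581), so it is not among the genes that voom called. It was also 1 of the 3 genes changed by olaparib beside palbociclib, with the long noncoding RNA AC092720.1 (chromosome 16, 87492555 to 87515635) and RNU7-141P, a small nuclear RNA pseudogene; these 2 are named because they complete that count, after their values were seen. AC092720.1 measured 7.73 and 8.89 FPKM under DMSO, 6.37 and 9.43 under olaparib, 11.7 and 9.94 under palbociclib alone and 1.89 and 1.98 under both drugs, so the 2 combination libraries were the lowest of the 8. Its interaction was −1.92 ± 0.22 (limma adjusted p = 0.144). RNU7-141P had 0.735 and 1.01 FPKM with palbociclib and 4.42 and 4.34 with the combination, and an interaction of 1.60 ± 0.17 (limma adjusted p = 0.144). Of all 12443 tested genes, 88 (0.707%) had an interaction beyond 1 in size, and 1 of these was protein-coding.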

How the data were processed

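The authors deposited FPKM values for 31721 Ensembl genes in 8 columns, 1 per library. HTSeq 0.6.0, STAR 2.5.1b, CASAVA 1.8 and the builds hg38 and GRCh38 are listed, per the submitters' processing notes, with no step assigned to any. The use of strand in counting is not stated, so overlapping and antisense genes and near-identical copies are uncertain. Symbols and positions came from GENCODE 29 on GRCh38, in which 30945 identifiers were found. With its exon lengths, 28635 genes (90.3%) gave whole reads in every library within 0.01, and 91.3% of values came out whole. A length was searched for 3064 others. The scaling in the deposited FPKM values equals median-of-ratios size factors of these reads within 2.64e-07%.

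Genes with a mean of at least 1 FPKM (12443, with 19278 dropped) entered limma 3.58.1 (R 4.3.3) on the log2(FPKM + 1) scale. The model had a mean for each group, a trend on expression, 4 residual and 3.01 prior degrees of freedom, two-sided, and Benjamini-Hochberg adjustment within a contrast at 0.05. The log scale with a pseudocount of 1 understates changes of low genes. Errors of differences are limma standard errors. An exact permutation test of 2 against 2 cannot go below 0.333 and was not used. The interaction and the effects of each drug share libraries, so no correlation or overlap between them is given. On data simulated for the interaction over 12443 genes, 50 of 50 genes with a log2 effect of 2 and 47 of 50 with 1 were recovered in each direction, and 13 of 12243 unchanged genes were called. The simulation changed 200 genes drawn at random and used normal noise independent between genes. It held no drift with GC content like that between the replicates of the data, so these shares may not hold in the data. Of the 88 genes beyond 1 in size in the data, 1 was called. Effects under 1, the size of nearly all protein-coding interactions given here, were not simulated, so recovery at that size is not known.

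The rule for named genes took all genes called in the interaction, the 12 protein-coding genes of at least 5 FPKM with the lowest and the 12 with the highest moderated t, the lowest and highest member of each list described, and 14 fixed genes of the cell cycle, p53 and repair. Some results under this rule are not reported here. Other list members named were chosen after their values were seen. The 30 gene lists and the genes to name were chosen with earlier results of these data known, and no list was tested as a set. Voom was run on the recovered reads as an alternative. The alternatives with protein-coding genes alone and with a correction for GC content and length were chosen after seeing the data.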

Additional observations from a re-analysis of the deposited data

Results flagged for a closer look

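ENSG00000274519 was the single gene whose olaparib effect differed by the tested interaction between cells with and without palbociclib (−1.90 on the log2 scale, limma adjusted p = 0.0221): both olaparib libraries lay above DMSO and both combination libraries below palbociclib.

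In 18 further genes whose interaction is given in the text, every library of a drug moved one way without the other drug and the opposite way with it. That the directions are opposite was not tested. Genes in the text were named largely for a low or high interaction, which favours such a pattern, and its share over all genes was not counted. In limma on log2(FPKM + 1) 0 of the 18 passed an adjusted p of 0.05 for the interaction. Voom on recovered reads, which called 112 of all 12443 genes, called 10 of them (AC092720.1, APOBEC3B, CDKN1A, DDB2, DDIT4, FDXR, LIG4, PHLDA3, RF00100 and TUBA1A). Palbociclib put both libraries above DMSO but, in olaparib-treated cells, below olaparib for PHLDA3 (interaction −0.75), CDKN1A (−0.74), FDXR (−0.73), DDB2 (−0.33) and SESN1 (−0.31) of the p53 list, and for DDIT4 (−0.52), APOBEC3B (−0.34), AC092720.1 (−1.92) and the 7SK RNA RF00100 (−5.48). For SELENOS (0.23) and RNU7-141P (1.60) the palbociclib libraries lay below DMSO and the combination libraries above olaparib. The olaparib libraries lay above DMSO and the combination libraries below palbociclib for TUBA1A (−0.36), APOBEC3B (−0.34), MAD2L2 (−0.22) and RF00100 (−5.48). For LIG4 (0.45), FAM104A (0.31), CSTF2 (0.28), UHRF1BP1L (0.24) and NDC80 (0.20) the olaparib libraries lay below DMSO and the combination libraries above palbociclib. Some reversed effects were small. Olaparib beside palbociclib was 0.039 for CSTF2 (limma adjusted p = 0.583), 0.057 for UHRF1BP1L (0.492), 0.10 for FAM104A (0.235) and −0.089 for TUBA1A (0.307). Palbociclib beside olaparib was 0.038 for SELENOS (0.405). Both palbociclib effects passed 0.05 for CDKN1A, FDXR, DDB2, DDIT4, APOBEC3B, PHLDA3, RF00100 and RNU7-141P.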

How the results depend on the processing

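The interaction calls 1 gene, 33 with no filter on low values, 6 with a minimum of 5 FPKM and 3 among protein-coding genes alone. Voom on recovered reads calls 112 (109 of them negative, 11 p53 targets, CDKN1A, BTG2 and FDXR included). With no trend, with the replicate block, or after GC and length correction the interaction calls 0. The 1 gene, ENSG00000274519, was not tested among protein-coding genes alone or after that correction, since it has no annotation. Leaving out 1 library gives 0 to 2. Genes at an unadjusted p under 0.05 (1315) number 2450 with no filter and 784 to 1872 with 1 library left out. The median over all genes (0.016) is −0.0084 with TPM, 0.00046 with no filter and −0.00027 by voom, and 0.0065 to 0.024 with 1 library left out. Calls for olaparib without palbociclib (1821) are 601 with no filter, 1000 with quantile normalisation and 2930 by voom; leaving out DMSO replicate 1 or 2 gives 13 or 28, leaving out olaparib replicate 1 or 2 gives 268 or 33, and leaving out any other library gives up to 1956. Calls for olaparib with palbociclib (3) are 7 with a pseudocount of 10, 23 with no filter, 19 with a minimum of 5 FPKM, 17 with quantile normalisation, 12 with TPM, 9 with robust moderation, 250 by voom, 68 among protein-coding genes alone, 212 after GC and length correction, 0 with no trend, and 0 to 2 with 1 library left out. The cause of these shifts was not tested.

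The p53 list median stayed between −0.23 and −0.17 over the 8 fits that left out 1 library, and was −0.092 with a pseudocount of 10. The 12 lowest and 12 highest genes by moderated t kept their sign in all 20 tested settings. They were chosen by that t in the same libraries, which favours a kept sign, so this is no independent check. A group left with 1 library is assumed to vary like the others. Replicate numbers pair samples by number only: deviations of same-numbered libraries correlated at −0.0467 to 0.0342, and the replicate block gave 0 interaction calls, 1651 at an unadjusted p under 0.05 and 3 calls for olaparib with palbociclib. The edgeR test was not run, since the deposited values are FPKM.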

Other observations

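Outside the groups above, 3 genes of the matrix, cell surface and lysosome with GC-rich transcripts sat below the additive level. Their GC content put all 3 in the GC-richest of the 5 groups of protein-coding genes, where 83.6% of genes lay below 0. The interquartile range of the interaction in that group was −0.20 to −0.037, and its 5th percentile was −0.34. COL6A1 and HLA-C lay between −0.34 and −0.20, and GAA lay below −0.34, so a value below 0 does not set these genes apart from others of their GC content. COL6A1, a collagen VI chain with 63.5% GC, measured 7.46 and 7.71 FPKM under DMSO, 9.94 and 10.9 under olaparib, 14.2 and 14.4 under palbociclib alone and 14.9 and 16.6 under both drugs (interaction −0.28 ± 0.09). HLA-C, a class I antigen presentation gene with 62.7% GC, measured 44.7 and 44.8 FPKM under DMSO, 54.3 and 56.1 under olaparib, 69.3 and 68.9 under palbociclib alone and 68.4 and 75.3 under both drugs (−0.24 ± 0.07), and the lysosomal glucosidase gene GAA (64.1% GC) had −0.36 ± 0.09. In limma on log2(FPKM + 1) 0 of the 3 passed an adjusted p of 0.05, while GAA passed it by voom on recovered reads (−0.40, adjusted p = 0.0175), and the part of GC content in them was not tested. The list medians were −0.016 over 19 mesenchymal and matrix genes, −0.0041 over 8 antigen presentation genes, −0.015 over 31 lysosome genes, −0.051 over 19 interferon-stimulated genes and 0.046 over 28 oxidative phosphorylation genes. The genes named in this paragraph were chosen after their values were seen.

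Large interactions were mostly those of short or unannotated RNAs. Of the 88 genes beyond 1 in size, 1 was protein-coding (S100A6, −1.50 ± 0.70, with 3.26 and 0.433 FPKM in the olaparib libraries), while 24 were not in the annotation, 17 were miRNA genes, 15 snRNA genes and 10 snoRNA genes. The largest was the 7SK RNA, RF00100 in the annotation, at −5.48 ± 0.74 (limma adjusted p = 0.232), a small nuclear RNA that holds the elongation factor P-TEFb inactive. It measured 1.12 and 2.05 FPKM under DMSO, 23.1 and 48.4 under olaparib, 23.9 and 7.67 under palbociclib alone and 4.14 and 2.90 under both drugs, so replicates differed by up to 3-fold. ENSG00000277105 measured 4820 and 4542 FPKM under DMSO, 3878 and 112 under olaparib, 87.1 and 221 under palbociclib alone and 72.9 and 1765 under both drugs, so the replicates lay close together under DMSO and far apart under olaparib and under both drugs. Libraries were made from polyadenylated RNA, per the labels, and how far such RNAs were retained in each library was not tested.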
